A study of Mus musculus with 18 samples.

Results

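Genes of oxidative phosphorylation were followed across 18 arrays of C3H10T1/2, a mouse mesenchymal fibroblast line that can be turned into fat cells. A gene was included if its probe set carried 1 gene symbol, and that symbol began with Ndufa, Ndufb, Ndufc, Ndufs or Ndufv, with Uqcr, with Cox followed by 4, 5, 6, 7 or 8, or with Atp5, or was Sdha, Sdhb, Sdhc or Sdhd. The rule used names, not measured values. It found 71 genes on 98 probe sets, of 8251 genes and 12488 probe sets on the array, and each gene was read by its probe set with the highest mean intensity. Of these 71 genes, 60 passed the filter for testing, which asked that the highest of the 8 group means reach the median of all log2 intensities (9.73). They comprised 25 of 29 genes of complex I, 1 of 2 complex I assembly factors, 4 of 4 of complex II, 7 of 7 of complex III, 10 of 15 of complex IV and 13 of 14 of complex V.

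The cells received an adipogenic mix (IDMB), epidermal growth factor (EGF) and dioxin (TCDD) in every combination. IDMB held 10 µg/mL insulin, 1 µM dexamethasone, 0.5 µM IBMX (the unit as the labels give it) and 1 µM BRL49653, an agonist of the fat cell regulator PPARG, and was present for 24 h. EGF was present at 10 nM for 24 h, and TCDD at 10 nM for 72 h. TCDD binds and activates the aryl hydrocarbon receptor. The labels name none of these agents for the group called UT, which served as the control here. All cultures were taken 72 h after serum was last added and 24 h after confluence, and the mRNA of 6 cultures was combined for each array. UT and IDMB had 3 arrays each. EGF, TCDD, EGF+TCDD, IDMB+EGF, IDMB+TCDD and IDMB+EGF+TCDD had 2 each. Nothing in the labels says that the pools came from separate experiments, so p-values measure the spread between these pools. The labels give 1 cell line, and the comparisons hold for that line.

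The respiratory chain passes electrons from NADH through complex I, or from succinate through complex II, to coenzyme Q, then through complex III and cytochrome c to complex IV, where oxygen is reduced. Complexes I, III and IV pump protons across the inner membrane, and complex V, the ATP synthase, uses their return to make ATP. The complexes are built from core subunits that carry the catalytic centres and from smaller accessory subunits, and most of both kinds are encoded in the nucleus. Differentiating fat cells are known for building up mitochondria, and brown fat cells hold many.

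Mean deposited intensities of the tested members over the 18 arrays ran from 714 (Atp5g1, an isoform of the ATP synthase c subunit) to 61932 (Cox6c, an accessory subunit of complex IV), and 35 of 60 (58.3%) exceeded 10000. The rule took the brightest probe set of each gene, while the 7134 probe sets tested include dimmer ones of the same genes, so the members' brightness is not set against theirs. The median within-group standard deviation was 0.20 on the log2 scale for members and 0.29 for all probe sets tested. The 11 members that were not tested were Atp5j2, Cox5a, Cox6a2, Cox6b2, Cox7a1, Cox8a, Ndufa1, Ndufa12, Ndufaf4, Ndufc2 and Ndufs4. Cox7a1 and Cox6a2, the muscle isoforms of their subunits, had median intensities of 103 and 193. Cox5a and Cox8a, subunits that most cells use, were also dim, with medians of 268 and 130, and Cox8a lay under the intensity floor of 143.5, below which 20% of all values lie, on 10 of 18 arrays. These levels come from different probe sets and cannot be set against each other.

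The labelled cell type was checked by its markers. Of 12 fibroblast markers 10 passed the filter, led by the collagens Col1a2 (median intensity 114354) and Col1a1 (100093), while Vim (479) and Lum (388) did not. Of 10 fat cell markers 6 were tested, while Slc2a4 (189), Retn (113), Cd36 (54.65) and Cidec (52.05) were not. With IDMB 4 of the 6 rose, beside 15.5% of all probe sets, among them Lipe, by 1.86 on the log2 scale. The summed intensity of the 10 ran from 22620 to 49690 on IDMB arrays against 8007 to 9813 on UT arrays. That sum is weighted to its brightest probe set, Scd1 (median 7789). Of 10 brown and beige fat markers 2 were tested, and Ucp1, Cidea and Ppargc1a had medians of 314, 146 and 72.6. Markers of other cell types were partly above the filter. Of 18 muscle markers 7 were tested, with Actc1 (median 5211), Myod1 (1310) and Myog (884.5) among them, while Myf5 (22.5) was under the floor on all 18 arrays. Of 9 macrophage markers Cd14 (5160) and Csf1r (847) were tested, while Adgre1 (104) and Itgam (82.2) were under the floor on 16 arrays. Pecam1 (707) was the 1 endothelial marker tested, with Cdh5 at 55.1, and Cdh1 (1991) the 1 epithelial marker, with Epcam at 34.9. The arrays had been brought to a common scale before deposit, with array medians of 793 to 936 and trimmed means of 2501 to 2502.

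The median member moved little between groups, and the 2 arrays with TCDD alone stood lowest. On each array the members' deviations from their own means over the 18 arrays were summarised by their median. This median was -0.19 and -0.20 on the TCDD arrays, and 17 of 60 members lay above their own mean on each. It was 0.13 and 0.14 on the IDMB+TCDD arrays, with 48 and 44 members above their mean, and between -0.08 and 0.12 on the other 14 arrays. The pooled within-group standard deviation of this median was 0.073. By the count of members above their own mean, EGF 1 was the lowest array, with 16 of 60. On the TCDD arrays complex IV stood at -0.41 and -0.43 and complex III at -0.33 and -0.44, while complex II stood at 0.31 and 0.00. In these bulk samples, fewer cells of a type and less RNA per cell cannot be told apart.

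**Figure D1:**
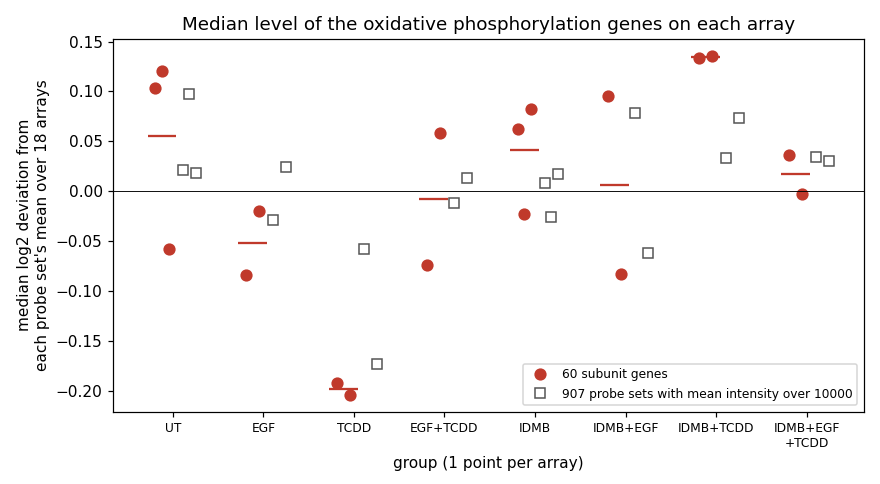
Each point is 1 array, by group, and the vertical axis is the median log2 deviation of a set of probe sets from their own means over 18 arrays. Filled circles are the 60 oxidative phosphorylation genes with the group mean as a line, and open squares are all 907 tested probe sets with a mean intensity over 10000. The 2 TCDD arrays are lowest in the circles, at -0.19 and -0.20, and the IDMB+TCDD arrays are highest, at 0.13 and 0.14.

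The first comparison asked what the adipogenic mix did, averaged over the 4 backgrounds (none, EGF, TCDD and both). Of 60 members, 15 rose and 3 fell (limma, Benjamini-Hochberg adjusted p under 0.05). Of all 7134 probe sets, 15.5% rose and 18.6% fell. Among probe sets with a mean intensity over 10000, 12 of 35 members (34.3%) rose, against 31.1% of all tested. There 2 members fell, against 227 of 907 of all tested. Among dimmer probe sets 3 of 25 members (12%) rose, against 13.2% of all tested, and 1 fell, against 17.7%. At like brightness the share that rose was thus close to that of all tested, while a smaller share of members fell. These shares were not tested against each other. The median member changed by 0.14 on the log2 scale and the median probe set by -0.04. The rises were spread over 3 of 7 genes of complex III, 4 of 10 of complex IV, 6 of 25 of complex I and 2 of 13 of complex V. No complex II gene was called (limma, 0 of 4), and all 3 that fell belonged to complex I. Of the 18 called members, 14 kept their sign in all 4 backgrounds and 4 (Uqcr10, Cox4i1, Atp5l and Ndufb7) had no overlap between the arrays with and without IDMB in any background. These 18 were called on the mean of the same 4 differences, which favours a kept sign. The 2 counts were not made over all probe sets.

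Complex III had 3 small subunits that rose. Uqcr10 (probe set 94078_at, chromosome 11), a small membrane-spanning subunit, read 11488, 12146 and 9247 on the UT arrays and 18822, 15544 and 14822.5 on the IDMB arrays. It read 10922 and 13435 with EGF against 16812 and 14007 with IDMB+EGF, 7772 and 7022 with TCDD against 16313 and 15993 with IDMB+TCDD, and 11887.5 and 11983 with EGF+TCDD against 15615 and 13809 with all agents. Every one of the 9 arrays with IDMB was above every one of the 9 without. Its mean rise was 0.59 on the log2 scale (SE 0.085, limma adjusted p = 5.5e-05), or 1.50-fold. Uqcrh (99115_at, chromosome 4), the acidic hinge protein beside cytochrome c1, ran from 18881 to 30652 (median 22426) with IDMB and from 14334 to 24925 (median 16374) without. Its ranges overlapped over all arrays but in only 1 of 4 backgrounds, and it rose by 0.47 (SE 0.084, adjusted p = 0.000388). Uqcr11 (99618_at, chromosome 10), another small membrane subunit, ran from 10101 to 17849 (median 11622) with IDMB and from 6934 to 15630 (median 9893) without, with wide overlap. It rose by 0.45 (SE 0.12, adjusted p = 0.00919). The core proteins of the complex did not pass the test, at -0.17 for Uqcrc1 (SE 0.085, adjusted p = 0.132) and 0.10 for Uqcrc2 (SE 0.11, adjusted p = 0.542).

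As 3 of the 7 genes of complex III rose, the stretches around their transcription starts are shown, from 170 bases before to 30 bases after the start, from RefSeq on build GRCm38.p6. Capitals mark matches to 5 motifs searched on both strands: the nuclear respiratory factor NRF1 (GCATGCG), ETS family factors such as GABPA (CCGGAAG), YY1 (AAGATGG), the estrogen-related receptors (AAGGTCA) and the dioxin response element of the aryl hydrocarbon receptor (TNGCGTG). The ETS, YY1 and receptor motifs can share the letters AAG, and the NRF1 motif with a C before it reads the same on both strands. Uqcr10 lies at chr11:4704315-4704514, Uqcrh at chr4:116075041-116075240 and Uqcr11 at chr10:80406792-80406991, all on the minus strand.
Uqcr10: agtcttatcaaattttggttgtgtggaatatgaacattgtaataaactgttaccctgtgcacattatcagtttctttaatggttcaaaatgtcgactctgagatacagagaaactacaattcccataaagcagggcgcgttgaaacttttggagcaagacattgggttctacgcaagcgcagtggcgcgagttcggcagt
Uqcrh: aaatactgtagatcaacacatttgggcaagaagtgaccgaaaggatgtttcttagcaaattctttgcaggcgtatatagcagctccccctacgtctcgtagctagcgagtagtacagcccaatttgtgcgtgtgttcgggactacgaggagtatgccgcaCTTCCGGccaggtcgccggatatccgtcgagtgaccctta
Uqcr11: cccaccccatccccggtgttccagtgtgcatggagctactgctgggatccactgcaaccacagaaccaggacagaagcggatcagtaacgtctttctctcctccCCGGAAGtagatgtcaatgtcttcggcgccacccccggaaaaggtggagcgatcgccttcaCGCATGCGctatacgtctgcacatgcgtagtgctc
Uqcr10 held none of the 5 motifs in this window. Uqcrh held an ETS motif at position -10 from the start, on the opposite strand. Uqcr11 held an ETS motif at -66 and an NRF1 motif at -5. No motif of the 5 stood in all 3 windows. The genes are shown because they rose, and what regulates them was not tested.

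Over the 300 bases that the promoter table gives for each gene, 58 of the 71 members had an entry. The NRF1 motif stood in 11 of 58 (19.0%), against 4.02% of all 27025 genes with an entry. The ETS motif stood in 16 (27.6%), against 9.93% of all genes, and the YY1 motif in 8 (13.8%), against 7.28%. The receptor motif stood in 5 (8.62%), against 5.38%, and the dioxin response element in 7 (12.1%), against 5.84%. Among the 15 members that rose with IDMB, 11 had an entry, and of these 3 held the NRF1 motif, 3 the ETS motif, 2 the YY1 motif, 1 the receptor motif and 2 the dioxin response element. A match is a run of letters and not a measured binding site.

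Complex IV, cytochrome c oxidase, had 4 risers. Cox4i1 (102124_f_at, chromosome 8), the widely used isoform of the regulatory subunit IV, read 1843, 2941 and 2414 in UT against 3210, 3341 and 3434 in IDMB. It read 1760 and 2255 in EGF against 3089 and 2297 in IDMB+EGF, 874.8 and 1287 in TCDD against 2412 and 2951 in IDMB+TCDD, and 2718 and 2430 in EGF+TCDD against 3252 and 3052 with all agents. The arrays with IDMB were higher in each background without overlap, though with EGF the lowest of them was close to the highest without, and the mean rise was 0.64 (SE 0.12, adjusted p = 0.000723). A second tested probe set of Cox4i1 (93788_at, mean intensity 851) changed by -0.07 (adjusted p = 0.835), so the probe sets disagree. The letter f in the name of the brighter one marks probes that can match several related sequences. Cox7a2l (160383_at, chromosome 17), which links complexes III and IV into larger assemblies, read 15628, 17120 and 16399 in UT against 20093, 16995 and 17961 in IDMB. With EGF, TCDD or both it lay between 9890 and 11631, and with IDMB in addition between 13871 and 17550, so those groups did not overlap. It rose by 0.43 (SE 0.073, adjusted p = 0.000245). The accessory subunits Cox7b (0.27, SE 0.091, adjusted p = 0.0313) and Cox6c (0.24, SE 0.087, adjusted p = 0.0439) also rose. Cox6a1 (0.26, adjusted p = 0.0525) and Cox5b (0.18, adjusted p = 0.0620) did not pass, nor did Cox7a2 (-0.01) and Cox6b1 (-0.07).

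**Figure D2:**
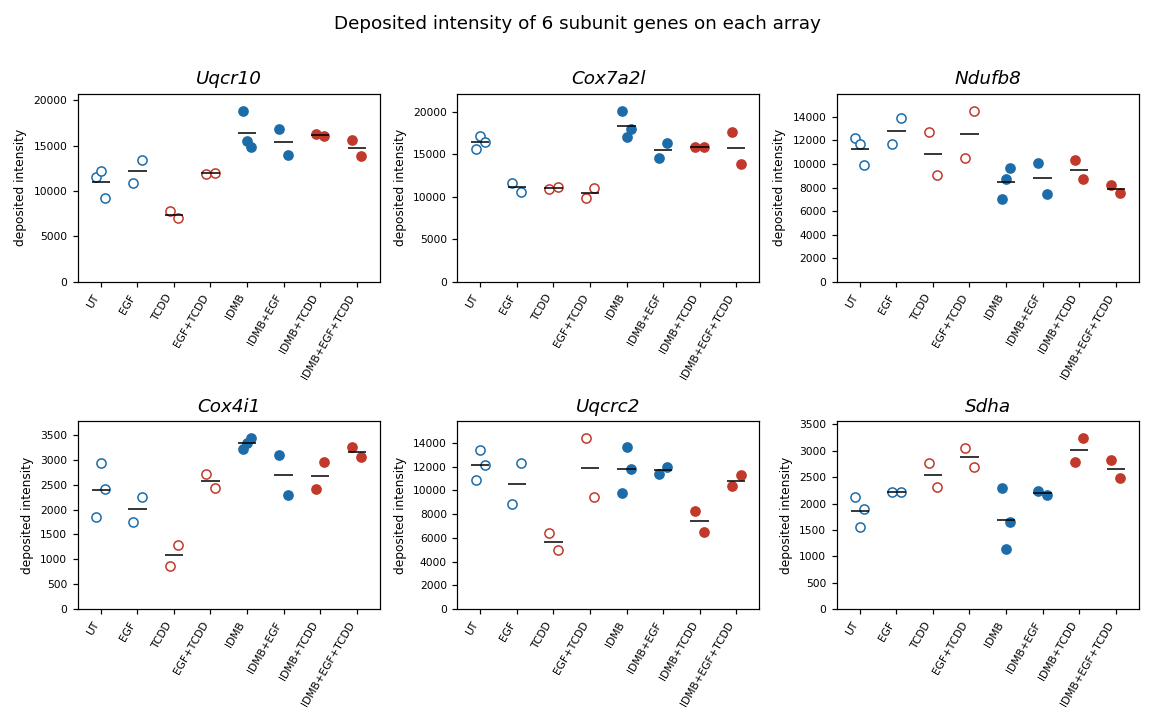
Deposited intensity (vertical axes, linear and starting at 0) of 6 genes on each array, by group, with lines at the group means. Filled points received IDMB and red points TCDD. Uqcr10 has no overlap between arrays with and without IDMB, Sdha has none between arrays with and without TCDD, and Cox4i1 and Uqcrc2 are lowest with TCDD alone.

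In complex V, 2 small membrane subunits rose. Atp5l (93014_at, chromosome 9), subunit g of the ATP synthase, ran from 29010 to 53012 (median 39460) with IDMB and from 24763 to 34178 (median 29070) without. It was higher in each background without overlap there, and rose by 0.41 (SE 0.093, adjusted p = 0.00254), while its second, dim probe set (mean intensity 731) gave 0.14 (adjusted p = 0.627). Atp5mpl, a small membrane proteolipid of the complex, rose by 0.30 (SE 0.097, adjusted p = 0.0248). The catalytic alpha subunit Atp5a1 (0.05, SE 0.069, adjusted p = 0.618), the c subunit gene Atp5g1 (-0.25, SE 0.26, adjusted p = 0.487) and Atp5pb (-0.41, SE 0.17, adjusted p = 0.0727), part of the peripheral stalk, did not pass.

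Complex I split. Ndufa3 (96915_f_at, chromosome 7), a small accessory subunit of the membrane arm, ran from 14693 to 21818 (median 16070) with IDMB and from 11976 to 16652 (median 13149) without. It rose by 0.37 (SE 0.072, adjusted p = 0.000909), with a dimmer probe set (mean intensity 1041) at 0.01 (adjusted p = 0.981). The accessory genes Ndufc1 (0.34, SE 0.115, adjusted p = 0.0318), Ndufa6 (0.31), Ndufa7 (0.30), Ndufb9 (0.29) and Ndufb5 (0.22) rose as well. Ndufa7, Ndufb5 and Cox6c are named here after their values were seen. Their ranges with and without IDMB overlapped, as in Ndufa7, which ran from 43146 to 52367 (median 49953.5) against 32735 to 49623 (median 43107). Ndufb8 (93581_at, chromosome 19), a membrane arm subunit, read 12226, 11697 and 9936 in UT against 7050, 8691 and 9656 in IDMB. Over all arrays it ran from 7050 to 10344 (median 8691) with IDMB and from 9059 to 14518 (median 11726) without, and it fell by 0.45 on the log2 scale (SE 0.11, adjusted p = 0.00397). Ndufb7 (95698_at, chromosome 8), on the outer face of the membrane arm, ran from 15188 to 18890 (median 16812) against 17827 to 22897 (median 21725) and fell by 0.31 (SE 0.070, adjusted p = 0.00288). Ndufa9 (96321_at, chromosome 6), at the joint of the peripheral and membrane arms, fell by 0.27 (SE 0.077, adjusted p = 0.0135). The core subunits Ndufs1 (-0.20, SE 0.086, adjusted p = 0.0833) and Ndufv1 (-0.05, adjusted p = 0.722) were not called. Nor were the complex II genes Sdha (-0.01), Sdhb (-0.22, adjusted p = 0.0911), Sdhc (-0.06) and Sdhd (0.04).

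**Figure D3:**
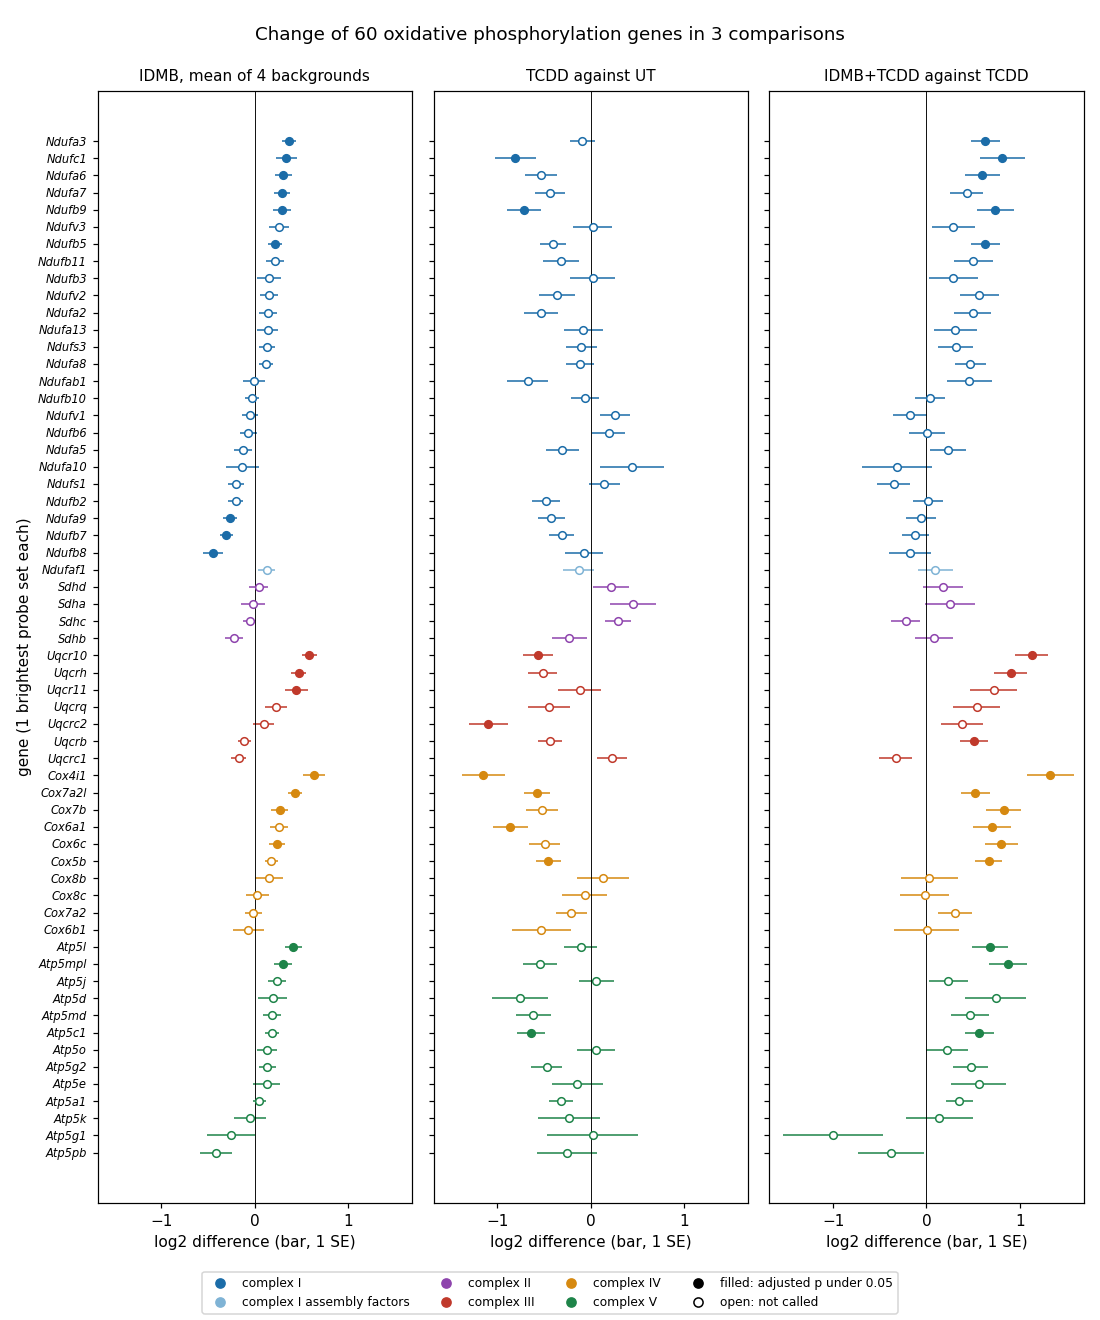
Log2 difference (horizontal axes, bars 1 SE) of the 60 tested genes, coloured by complex and ordered within it by the IDMB mean effect, in 3 comparisons; filled points passed limma's adjusted p of 0.05. The IDMB mean effect has 15 filled points above 0 and 3 below, TCDD against UT has 9 below 0, and IDMB+TCDD against TCDD has 17 above 0; the last 2 panels share the TCDD arrays.

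When any 1 array was left out, the calls of Uqcr10, Uqcrh, Uqcr11, Cox4i1, Cox7a2l, Atp5l, Ndufa3, Ndufa6, Ndufa7, Ndufb8, Ndufb7 and Ndufa9 held in all 18 fits. Cox6c lost its call in 13 of 18 fits (highest adjusted p = 0.117, without EGF+TCDD 2), Ndufc1 in 8 (0.0903, without TCDD 2) and Cox7b in 7 (0.0800, without IDMB+EGF 1). Ndufb9 lost it in 6 (0.0718, without TCDD 2), Ndufb5 in 6 (0.0837, without TCDD 2) and Atp5mpl in 5 (0.0749, without EGF 2). Over the 3 backgrounds that remain without the TCDD pair, 12 members were called, 6 higher and 6 lower, with a median of 0.02. The share of all probe sets called in that fit is not given here, so these counts are not a result about the members. The actin controls' 3' to 5' ratio, a measure of RNA integrity and of the labelling reaction, was 1.80 to 3.80 with IDMB and 1.23 to 1.93 without. With its log2 as a covariate, 1 member (Cox7a2l, 0.61, adjusted p = 0.0369) and 448 probe sets in all were called. Summed fibroblast markers ran from 306431 to 344854 in IDMB against 510102 to 570769 in UT, and over the 4 backgrounds 5 of 10 fell and 1 rose, led by Dcn (-2.39). Of 7 muscle markers 2 fell, Actc1, the cardiac actin (-1.73, SE 0.095, adjusted p = 1.03e-09), and Tnni1, the slow troponin I (2.01-fold lower, adjusted p = 0.000391). Of the macrophage markers Cd14 fell by 0.58 (adjusted p = 4.74e-05), and Ebf2 of the brown and beige list rose by 0.76 (adjusted p = 0.0150). The part of these differences, and of the rise in fat cell markers, in the members' changes was not tested.

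Against UT alone, IDMB changed few members. Uqcr10 rose by 0.58 (SE 0.14, adjusted p = 0.0112, n = 3 against 3 in limma) and Ndufb7 fell by 0.41 (SE 0.12, adjusted p = 0.0278), while 6.66% of all probe sets rose and 7.42% fell. The call of Uqcr10 was lost without UT 3 (0.0600) or IDMB 1 (0.0503). That of Ndufb7 was lost without UT 1 (0.0636), UT 2 (0.0769), UT 3 (0.0662) or IDMB 2 (0.0978). The median member changed by -0.00. With EGF present (IDMB+EGF against EGF), limma called 0 of 60 members and 10.8% of all probe sets. At an unadjusted p under 0.05 there were 10 members and 24.8% of all probe sets. With EGF and TCDD present (IDMB+EGF+TCDD against EGF+TCDD), Cox7a2l was called (0.58, SE 0.15, adjusted p = 0.0352), and 6.50% of all probe sets were. That call was lost without EGF+TCDD 1 (0.226), EGF+TCDD 2 (0.0910) or IDMB+EGF+TCDD 1 (0.292). The interaction of IDMB with EGF called 0 members and 0.126% of all probe sets in limma. Its unadjusted p was under 0.05 for 8 of 60 members and 865 of all 7134 probe sets. The interaction of IDMB with TCDD called 0 members and 0.112% of all probe sets in limma. Its unadjusted p was under 0.05 for 3 of 60 members and 571 of all 7134 probe sets.

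The next comparison asked what TCDD did on its own (n = 2 against 3). Of 60 members, 9 fell and none rose, and the median member was at -0.31 against 0.03 for all probe sets. Of all probe sets 3.80% fell and 3.88% rose. Cox4i1 read 874.8 and 1287 with TCDD against 1843 to 2941 in UT, below every UT array, and fell by 1.15 (SE 0.23, adjusted p = 0.00891). Its second probe set gave 0.15 (adjusted p = 0.871). Uqcrc2 (102000_f_at, chromosome 7), core protein 2 of complex III, read 6381 and 4999 against 10843, 13398 and 12135. The groups were far apart, and it fell by 1.10 (SE 0.21, adjusted p = 0.00681).

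Of the other members that fell with TCDD, 3 belonged to complex IV. Cox6a1 (99631_f_at, chromosome 5), the isoform of subunit VIa outside muscle, read 28847 and 26666 against 59459, 55869 and 38534. Both TCDD arrays were below the lowest UT array, and it fell by 0.86 (SE 0.19, adjusted p = 0.0122). Cox7a2l read 10874 and 11120 against 15628 to 17120 and fell by 0.57 (SE 0.14, adjusted p = 0.0212). Cox5b (93119_at, chromosome 1), a nuclear-encoded subunit on the matrix side, read 13242 and 12029 against 16251 to 18369 and fell by 0.45 (SE 0.13, adjusted p = 0.0477). In complex III, Uqcr10 read 7772 and 7022 against 9247 to 12146 and fell by 0.56 (SE 0.16, adjusted p = 0.0455). These groups did not overlap.

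In complex I, Ndufc1 (100628_at, chromosome 3) read 6688 and 4595 against 11896, 9585 and 8000 and fell by 0.81 (SE 0.22, adjusted p = 0.0348). Ndufb9 (100079_at, chromosome 15), an accessory subunit of the membrane arm, read 10455 and 6719 against 12180, 15364 and 13768 and fell by 0.71 (SE 0.18, adjusted p = 0.0275). For both genes TCDD 2 was the lower array. In complex V, Atp5c1 (92799_g_at, chromosome 2), the rotating gamma subunit, read 19424 and 19286 against 27441 to 34454. It fell by 0.64 (SE 0.15, adjusted p = 0.0157), but its other tested probe set (92798_at) gave 0.09 (adjusted p = 0.824). Atp5d, the delta subunit of the same rotor, was at -0.76 (SE 0.30, adjusted p = 0.128) by its brightest probe set and at -1.03 (adjusted p = 0.0103) and -0.70 (adjusted p = 0.0299) by 2 dimmer ones, but at 0.41 (adjusted p = 0.614) by the dimmest tested. The complex II genes were of mixed sign: Sdha was at 0.46 (adjusted p = 0.274), Sdhc at 0.30 (0.205), Sdhd at 0.22 (0.540) and Sdhb at -0.23 (0.492), and none was called by limma. Over all complexes 14 of 60 members were above 0.

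The start regions of Ndufc1 and Cox6a1, which fell with TCDD in different complexes, are shown in the same way. Ndufc1 lies at chr3:51408926-51409125 and Cox6a1 at chr5:115348929-115349128, both on the minus strand of GRCm38.p6.
Ndufc1: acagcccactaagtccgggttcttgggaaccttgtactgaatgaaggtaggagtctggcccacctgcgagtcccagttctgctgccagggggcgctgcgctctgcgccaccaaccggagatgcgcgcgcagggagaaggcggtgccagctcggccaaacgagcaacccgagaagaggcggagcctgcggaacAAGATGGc
Cox6a1: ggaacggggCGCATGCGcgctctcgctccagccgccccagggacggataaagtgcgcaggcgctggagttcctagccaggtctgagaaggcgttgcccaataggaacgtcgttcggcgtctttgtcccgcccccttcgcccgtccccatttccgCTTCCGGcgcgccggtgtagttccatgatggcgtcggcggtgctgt
Ndufc1 held a YY1 motif at position 22. Cox6a1 held an NRF1 motif at -161 and an ETS motif at -16. Neither held the dioxin response element in this window, and none of the 6 genes with an entry among the 9 that fell held it in the 300 bases of the table. That says only that these letters are not in the windows.

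The TCDD arrays also differed in measures that are not about these genes. Among probe sets with a mean intensity over 10000, the median of all tested was -0.15 and 12.7% fell, while the 35 members in that range had a median of -0.40 and 7 of 35 (20%) fell. Members are read by their brightest probe set and the others are not, so the shares are given side by side with no test. Among dimmer probe sets the median of all tested was 0.06 and 2.51% fell, while the 25 members there had a median of -0.13 and 2 of 25 (8%) fell. Every TCDD array was below every UT array for 29 of 60 members and for 19.0% of all probe sets. The intensity exceeded by the top 0.1% of probe sets was 115493 and 77274 on the TCDD arrays and 139730 to 170579 on the UT arrays. The 3' to 5' ratio of the Gapdh control was 0.919 and 0.854 with TCDD and 1.25 to 1.52 in UT, and with its log2 as a covariate 0 members (36 probe sets in all) were called by limma. Summed macrophage markers ran from 11215 to 13304 with TCDD and from 7486 to 8420 in UT (2 of 9 tested), and Cd14 among them rose by 0.75 (adjusted p = 0.0103). Summed fibroblast markers ran from 317321 to 400996 with TCDD against 510102 to 570769 in UT, and 2 of 10 fell, Col1a2 (-1.05) and Thy1 (-3.16). The muscle marker Actc1 (-0.79, adjusted p = 0.0159) and the fat cell marker Fabp4 (-1.33, adjusted p = 0.0372) fell too. The part of these differences in the members' fall was not tested.

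**Figure D4:**
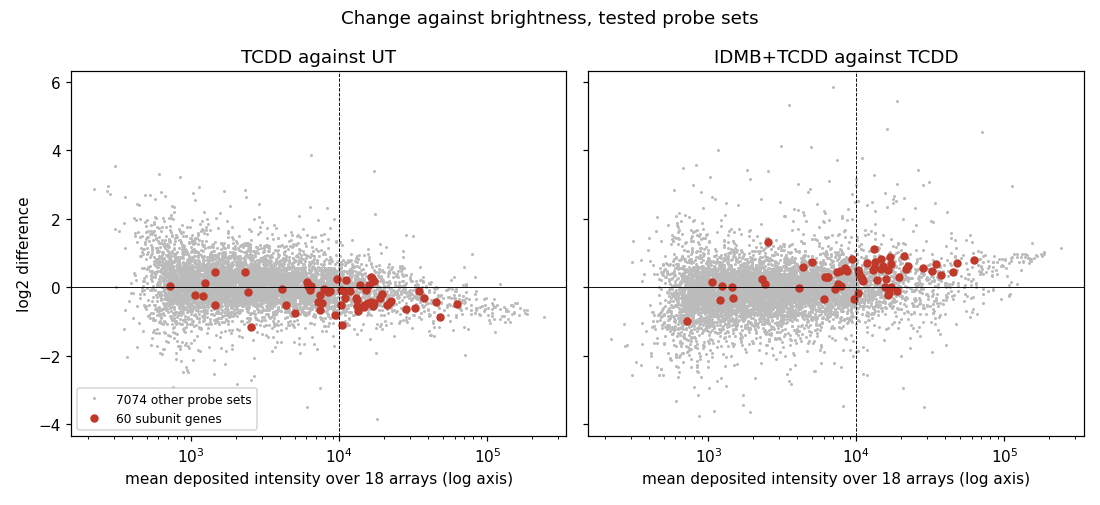
Log2 difference (vertical axes) against mean deposited intensity over 18 arrays (horizontal log axes) for 7074 other tested probe sets (grey) and the 60 tested genes (red), in TCDD against UT and in IDMB+TCDD against TCDD, which share the TCDD arrays. The dashed line marks 10000. Probe sets to its right lean downward with TCDD (median -0.15) and upward with IDMB+TCDD (0.16), and members there lean further (-0.40 and 0.50).

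The fall with TCDD rested on few arrays. Without TCDD 2, 1 member (Cox4i1) was called, and without UT 3, 13 were. Cox4i1 lost its call without TCDD 1 (adjusted p = 0.119), and Uqcrc2 without TCDD 2 (0.0786). Without TCDD 2, Ndufb9 was at -0.39 (0.323) and Ndufc1 at -0.54 (0.310). Ndufb9 also lost its call without UT 2 (0.112), and Ndufc1 without UT 1 (0.101) or UT 2 (0.0996). Without UT 2, TCDD 1 or TCDD 2, the adjusted p was 0.0591, 0.0632 and 0.0905 for Cox6a1, 0.0889, 0.123 and 0.0981 for Cox7a2l, and 0.0789, 0.0907 and 0.0884 for Atp5c1. Cox5b lost its call in 13 of 18 such fits (highest 0.256, without TCDD 2) and Uqcr10 in 11 (highest 0.240, without TCDD 2).

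The mix was also compared with TCDD present. IDMB+TCDD against TCDD (n = 2 against 2) shares the TCDD arrays with the previous comparison. Of 60 members 17 rose and none fell, against 6.53% higher and 6.28% lower of all probe sets, and the median was 0.37 against -0.08. Every IDMB+TCDD array was above every TCDD array for 37 of 60 members and for 26.5% of all probe sets. Cox4i1 rose by 1.33 (SE 0.25, adjusted p = 0.00312), while its second probe set (93788_at) gave -0.20 (adjusted p = 0.819). Uqcr10 rose by 1.13 (SE 0.18, adjusted p = 0.000630) and Uqcrh by 0.90 (SE 0.18, adjusted p = 0.00351). Uqcrh read 26788 and 30652 with IDMB+TCDD against 16374 and 14334 with TCDD. Atp5mpl (0.87), Cox7b (0.83) and Ndufc1 (0.81) followed, and the other 11 that rose lay between 0.51 (Uqcrb) and 0.80 (Cox6c). They comprised 6 of 10 genes of complex IV in all, 5 of 25 of complex I, 3 of 7 of complex III and 3 of 13 of complex V, and no gene of complex II. Among probe sets over 10000, 20.9% of all tested and 14 of 35 members (40%) rose.

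The calls of Cox4i1 and Uqcr10 held without any 1 array. Uqcrh lost its call without IDMB+TCDD 2 (0.0516). Without TCDD 2, these 3 members were called in this comparison and no other, and the adjusted p was 0.0797 for Atp5mpl, 0.0992 for Cox7b and 0.290 for Ndufc1 (0.54). Without IDMB+TCDD 2 the last 3 were at 0.130, 0.0936 and 0.114, and Ndufc1 was at 0.148 without IDMB+TCDD 1. Scaling all arrays to the same median moved the median of all probe sets by 0.16 here, to 0.08, and the members then had a median of 0.52 with 18 higher. With the actin ratio as a covariate (1.98 and 2.07 on the IDMB+TCDD arrays, 1.43 and 1.23 on the TCDD arrays) no member was called (limma, 210 probe sets in all).

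EGF was compared over the 4 backgrounds next. Of 60 members 2 rose and 5 fell, against 7.06% higher and 6.04% lower of all probe sets, with a median of -0.03 against 0.00. Ndufa9 ran from 5009 to 7345 (median 5952) on the 8 arrays with EGF and from 6618 to 10433 (median 7740) on the 10 without, overlapping in part. It fell by 0.38 (SE 0.077, adjusted p = 0.00534), a call that held in every fit with 1 array left out. Uqcrh, which rose with IDMB, fell with EGF by 0.32 (SE 0.084, adjusted p = 0.0212). The membrane arm gene Ndufb10 (-0.28, SE 0.078, adjusted p = 0.0267), the core subunit Ndufs3 (-0.28, SE 0.088, adjusted p = 0.0456) and the complex II anchor Sdhc (-0.24, SE 0.074, adjusted p = 0.0432) fell. Uqcrc2 (0.35, SE 0.11, adjusted p = 0.0469) and Ndufa5 (0.30, SE 0.093, adjusted p = 0.0412), an accessory subunit of the peripheral arm, rose.

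The ranges of these genes overlapped between arrays with and without EGF. Ndufb10 ran from 5917 to 8228.5 (median 6914) with EGF and from 7745 to 10218 (median 8490) without. Ndufs3 ran from 8189 to 11173 (median 9211) with EGF and from 10209 to 15533 (median 11281) without, and Sdhc from 12480 to 16573 (median 15412) against 13301 to 21773 (median 17596). For the risers the lowest array without EGF was a TCDD array in Uqcrc2 (4999, TCDD 2), while Ndufa5 ran from 8632 to 14487 (median 12402) with EGF and from 8213 to 13615 (median 9735) without. Over the 3 backgrounds without the TCDD pair, 7 members fell and none rose. As the share of all probe sets in that fit is not given here, the direction cannot be read as particular to the members.

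The EGF calls other than that of Ndufa9 were near the threshold. Uqcrh lost its call in 4 of 18 fits with 1 array left out (highest adjusted p = 0.0608, without IDMB+TCDD 2), Ndufb10 in 7 (0.0750, without EGF+TCDD 1) and Ndufs3 in 13 (0.134, without IDMB+TCDD 2). Uqcrc2 lost it in 13 (0.130, without EGF+TCDD 1), Ndufa5 in 14 (0.10, without IDMB+EGF+TCDD 1) and Sdhc in 15 (0.120, without EGF+TCDD 1). Scaled to the same median, 0 members rose and 3 fell, against 2 and 6 after quantile normalization. With the log2 of either the actin or the Gapdh ratio as a covariate, limma called 0 members and 0 probe sets in all; the Gapdh ratio was 1.43 to 2.86 with EGF and 0.854 to 1.73 without. Of the cell type markers, 3 of 10 fibroblast markers rose with EGF, Col1a2 (0.54, adjusted p = 0.00104), S100a4 (0.53, adjusted p = 0.0138) and Fn1 (0.33, adjusted p = 0.0156), and the muscle marker Actc1 fell by 0.34 (adjusted p = 0.0262). Their part in the members' changes was not tested.

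Against UT (n = 2 against 3), 2 members fell with EGF and none rose, against 2.58% lower and 3.59% higher of all probe sets. Cox7a2l read 11631 and 10588 against 15628 to 17120 in UT, with no overlap, and fell by 0.56 (SE 0.14, adjusted p = 0.0273). Its call was lost without UT 2 (0.108), EGF 1 (0.0947) or EGF 2 (0.241). Ndufa9 read 6086 and 7273 against 8724 to 10433 and fell by 0.53 (SE 0.15, adjusted p = 0.0443), a call lost in 12 of 18 fits with 1 array left out (highest 0.297, without EGF 1). In the same comparison the fibroblast markers Dcn (-1.62, adjusted p = 0.0124) and Thy1 (-2.46, adjusted p = 0.0320) and the fat cell marker Fabp4 (-1.50, adjusted p = 0.0258) fell, and the muscle marker Tnni1 rose by 1.28 (adjusted p = 0.0372). Summed fibroblast markers ran from 532505 to 549171 with EGF, within the range of UT, and summed fat cell markers from 11709 to 12389, above it. Such a sum is weighted to its brightest probe sets, here Scd1 (median 7789 over all arrays). Of the 6 fat cell markers tested, limma called 0 higher and 1 lower. The part of all these markers in the members' changes was not tested. With IDMB present (IDMB+EGF against IDMB), 1 member was called and 3.80% of all probe sets were. This was Ndufab1 (96909_at, chromosome 7), the mitochondrial acyl carrier protein that is also part of complex I, which read 5186 and 5106 with IDMB+EGF against 11419, 9910 and 9966 with IDMB. It fell by 1.02 (SE 0.22, adjusted p = 0.0175) and the groups were far apart, though the call was lost without IDMB+EGF 1 (0.120) or IDMB+EGF 2 (0.0682). With IDMB and TCDD present (IDMB+EGF+TCDD against IDMB+TCDD), limma called 0 members and 0.280% of all probe sets. At an unadjusted p under 0.05 there were 13 members and 11.9% of all probe sets. Ndufab1 was at -0.37 there (limma adjusted p = 0.581).

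With TCDD present, 9 members rose and 1 fell with EGF (EGF+TCDD against TCDD, n = 2 against 2), against 1.60% higher and 1.91% lower of all probe sets. This comparison too shares the TCDD arrays. Every EGF+TCDD array was above every TCDD array for 25 of 60 members and for 27.8% of all probe sets. Cox4i1 rose by 1.28 (SE 0.25, adjusted p = 0.0141), while its second probe set (93788_at) gave -0.21 (adjusted p = 0.854). Uqcrc2 read 14395 and 9449 with EGF+TCDD against 6381 and 4999 with TCDD, apart but with a wide spread, and rose by 1.05 (SE 0.23, adjusted p = 0.0218). Cox6a1 (0.84), Cox7b (0.80), Ndufa5 (0.75), Cox6c (0.75), Uqcr10 (0.69), Uqcrb (0.68) and Atp5c1 (0.60) rose as well, though the other tested probe set of Atp5c1 (92798_at) gave -0.20 (adjusted p = 0.645). Sdhc fell by 0.60 (SE 0.15, adjusted p = 0.0437). Sdhc read 20260 and 21773 with TCDD, above every array of the other 7 groups. Without TCDD 2, limma called 0 members here. Uqcrc2 lost its call without TCDD 2 (0.270) or EGF+TCDD 1 (0.255), and Cox4i1 without TCDD 1 (0.0795), TCDD 2 (0.0701), EGF+TCDD 1 (0.152) or EGF+TCDD 2 (0.0555). With the Gapdh ratio as a covariate (2.34 and 2.71 on the EGF+TCDD arrays, 0.854 and 0.919 on the TCDD arrays), limma called 0 members and 0 probe sets in all.

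The interaction of EGF with TCDD, averaged over arrays with and without IDMB, was called for 2 members, Cox4i1 and Uqcrc2, and for 4.47% of all probe sets. For Cox4i1 the difference between the TCDD effects with and without EGF was 1.04 (SE 0.24, adjusted p = 0.0264), and by its second probe set (93788_at) 0.12 (adjusted p = 0.901). For Uqcrc2 it was 0.91 (SE 0.22, adjusted p = 0.0310). Uqcrc2 read 8285 and 6527 with IDMB+TCDD against 9796 to 13690 with IDMB, below all 3, and 10341 and 11290.5 with all agents against 11377 and 11997 with IDMB+EGF, only just below. Another 10 members had an unadjusted p under 0.05, which makes 12 of 60, beside 21.8% of all probe sets. Cox4i1 lost this call in 7 of 18 fits with 1 array left out (highest adjusted p = 0.0829, without EGF 1) and Uqcrc2 in 8 (0.0929, without EGF 1).

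Averaged over the 4 backgrounds, TCDD changed 2 members, against 2.71% higher and 2.83% lower of all probe sets. Sdha (94080_at, chromosome 13), the flavoprotein that oxidises succinate in complex II, read 2770 and 2305 with TCDD against 2126, 1551 and 1891 in UT. It read 3052 and 2696 with EGF+TCDD against 2222 and 2212 with EGF, 2791 and 3239 with IDMB+TCDD against 2293, 1137 and 1643 with IDMB, and 2817 and 2480.5 with all agents against 2244 and 2158 with IDMB+EGF. All 8 arrays with TCDD (2305 to 3239, median 2780.5) were above all 10 without (1137 to 2293, median 2142). The mean rise was 0.50 (SE 0.13, adjusted p = 0.0328), or 1.41-fold. Uqcrc2 fell by 0.43 (SE 0.11, adjusted p = 0.0311). The other 3 complex II genes were at 0.12 (Sdhd, adjusted p = 0.566), 0.09 (Sdhc, 0.571) and 0.04 (Sdhb, 0.889).

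The Sdha start region, at chr13:74350211-74350410 on the minus strand, is shown because all 8 arrays with TCDD lay above the 10 without.
Sdha: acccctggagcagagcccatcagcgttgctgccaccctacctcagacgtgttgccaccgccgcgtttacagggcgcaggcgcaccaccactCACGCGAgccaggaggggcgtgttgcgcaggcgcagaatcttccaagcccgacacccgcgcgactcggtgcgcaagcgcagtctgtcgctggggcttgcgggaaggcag
It held the dioxin response element at position -79, read on the opposite strand, and none of the other 4 motifs. The element stood in 7 of 58 members' promoters, and binding was not measured.

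The Sdha call was lost in 12 of 18 fits with 1 array left out (highest adjusted p = 0.0877, without TCDD 1), with values from 0.43 to 0.56. The Uqcrc2 call was lost in 9 (highest 0.0927, without EGF 2), and over 3 backgrounds without the TCDD pair limma called 0 members. By background, Sdha was called in IDMB+TCDD against IDMB (0.89, SE 0.25, adjusted p = 0.0405), the 1 member called there, beside 6.59% of all probe sets. That call was lost in 11 of 18 fits with 1 array left out (highest adjusted p = 0.244, without IDMB+TCDD 2), and the value ran from 0.63 to 1.14. Cell type markers moved with TCDD over the 4 backgrounds as well. Lpl (-1.52) and Adipoq (-1.03) fell among 6 fat cell markers, Thy1 (-1.50) among 10 fibroblast markers, Actc1 (-0.58) among 7 muscle markers and Ebf2 (-1.11) among 2 of brown and beige fat, while Cd14 rose by 0.47. Their part in the members' changes was not tested. In EGF+TCDD against EGF limma called 0 members and 0.280% of all probe sets (at an unadjusted p under 0.05, 1 member and 5.33%). In IDMB+EGF+TCDD against IDMB+EGF it called 0 and 0.364% (unadjusted, 1 and 7.08%).

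Genes around the respiratory chain were taken from lists. Their counts stand beside the shares of all 7134 probe sets, which were 15.5% higher and 18.6% lower in the IDMB mean effect, 7.06% and 6.04% in that of EGF, and 2.71% and 2.83% in that of TCDD. Unless a comparison with UT is named, the changes in these lists are mean effects. Among 14 electron carriers and coenzyme Q genes, 3 rose and 3 fell with IDMB. Coq9, a lipid-binding protein of coenzyme Q synthesis, rose by 0.79 (SE 0.12, adjusted p = 9.05e-05), while Cycs, cytochrome c, fell by 0.52 (SE 0.14, adjusted p = 0.00685) and Coq7, a hydroxylase of the same synthesis, by 0.58 (SE 0.17, adjusted p = 0.0138). Coq3 rose by 0.39. With TCDD 2 of the 14 fell, the glycerol-3-phosphate dehydrogenase Gpd2 (-0.51, SE 0.11, adjusted p = 0.0131) and the electron transfer flavoprotein Etfa (-0.26, adjusted p = 0.0492). With EGF, Coq9 rose by 0.40 and Coq5 fell by 0.59.

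Of 17 genes of the tricarboxylic acid cycle and pyruvate dehydrogenase, 3 rose and 2 fell with IDMB, and limma called none in the mean effects of EGF and TCDD. Pcx, pyruvate carboxylase, rose by 1.23 (SE 0.19, adjusted p = 0.000106) and Pdha1, the E1 alpha subunit of pyruvate dehydrogenase, by 0.55 (SE 0.098, adjusted p = 0.000404). Sucla2 (-0.27) and citrate synthase Cs (-0.23) fell. Of 16 glycolysis and lactate genes, 3 rose and 6 fell with IDMB. Pdk4, the kinase that switches pyruvate dehydrogenase off, rose by 2.25 (SE 0.28, adjusted p = 1.11e-05) and Ldhb, the lactate dehydrogenase of heart, by 1.70 (SE 0.16, adjusted p = 4.82e-07), and Pdk1 and Pgam1 both fell by 0.72.

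With TCDD most of the glycolysis list fell. Averaged over the 4 backgrounds, 10 of 16 genes fell, beside 2.83% of all probe sets, and 1 (Pdk3, 0.31, named after its value was seen) rose, with a median of -0.70, beside 1 lower and 1 higher of 60 members with a median of -0.03. The 2 lists were not tested against each other. Ldhb fell by 1.13 (SE 0.16, adjusted p = 0.000406), Pdk1 by 0.98 (SE 0.23, adjusted p = 0.0209), Pgk1 by 0.94 (SE 0.11, adjusted p = 7.65e-05) and Aldoa by 0.93 (SE 0.13, adjusted p = 0.000474). Pgk1 and Aldoa are enzymes of the glycolytic pathway. With EGF, Pfkp, a phosphofructokinase, rose by 0.53 and the hexokinase Hk2 fell by 0.65.

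Regulators and builders of the chain were mixed. Of 12 regulators of mitochondrial transcription, Nrip1, a corepressor of oxidative genes in fat (0.86, SE 0.18, adjusted p = 0.00135), and Polg2 (0.49), a subunit of the mitochondrial DNA polymerase, rose with IDMB, and Pprc1 (-0.58) and Yy1 (-0.31) fell. Yy1 rose with EGF by 0.65 (SE 0.10, adjusted p = 0.00108), and limma called none in the TCDD mean effect. Of 15 assembly factors, Sdhaf1 (0.42), Lrpprc (0.41) and Higd2a (0.34) rose and Cox18 (-0.25) fell with IDMB. Acad9 (0.52) rose and Coa3 (-0.46) and Surf1 (-0.33) fell with EGF. Higd1a, a hypoxia-induced partner of complex IV, fell with TCDD (-0.94, SE 0.17, adjusted p = 0.00429).

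Of 57 mitochondrial ribosomal proteins tested, 9 rose and 2 fell with IDMB, beside 15.5% and 18.6% of all probe sets, led by Mrpl24 (0.84) and Mrpl45 (0.71), 1 rose and 4 fell with EGF, led by Mrpl11 (-0.48) and Mrps34 (-0.47), and Mrps12 (0.48) rose with TCDD. Of 8 genes of ATP export, porins and uncoupling, the carnitine carrier Slc25a20 (0.29) rose with IDMB, the porin Vdac3 (-0.29), the citrate carrier Slc25a1 (-0.22) and the adenine nucleotide translocator Slc25a4 (-0.20) fell, and limma called none in the mean effects of EGF and TCDD. Against UT, however, TCDD lowered Slc25a4 by 0.67 (SE 0.14, adjusted p = 0.0110) and Slc25a11, the oxoglutarate carrier, by 0.75 (SE 0.20, adjusted p = 0.0319), which is named after its value was seen.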

How the data were processed

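RNA of 18 pools of 6 cultures was hybridised to 1-colour Affymetrix arrays. The authors deposited 1 linear intensity per probe set and array; the sources used here name no software for this step. The trimmed means (2% off each side) were 2501 to 2502, so the deposited arrays share a scale. The largest share of identical values between 2 arrays was 0.0966%. The number of arrays limits the precision.

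Intensities were floored at their 20th percentile (143.5), log2 was taken, and limma 3.58.1 (R 4.3.3) fitted 8 group means over all arrays with a trended empirical Bayes step (10 residual and 6.03 prior degrees of freedom). A probe set was tested if its highest group mean reached the median of all log2 values. The 66 control probe sets were left out, and p-values were adjusted over the 7134 tested (Benjamini-Hochberg, 0.05). A mean effect is the mean of 4 differences, 1 per background, weighted equally. Fold changes are on this floored log2 scale.

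Genes came from the platform annotation: 10833 probe sets had 1 symbol, 396 several and 1193 none. Several probe sets exist for 20 of the 71 genes. The members and all gene lists were chosen with earlier results of these data known. Named with values were the called members with the largest change (up to 10 in each direction in a mean effect, up to 6 in an interaction or single agent comparison), preset anchors, and up to 4 called genes of each pathway list in a mean effect. Names beyond these, among them Uqcr10 under TCDD and the last 3 that rose with EGF+TCDD, were chosen after their values were seen. Promoters were RefSeq's on GRCm38.p6 (250 bases before to 50 after the start), matched by Entrez gene identifier.

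In data simulated for the comparison of TCDD against UT with 7134 probe sets, 34% of log2 changes of 1 and 2% of changes of 0.5 were recovered, and 3 of 39 calls were false. For the IDMB mean effect, 89% and 49% were recovered, and 9 of 147 calls were false. Alternatives were other scalings, a pseudocount of 50 in place of the floor, no filter, no trend, the mean over a gene's probe sets, a replicate block, control ratios as covariates, 2 groups only and leaving out each array. Where that left a group with 1 array, its spread was taken from the other groups.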

Additional observations from a re-analysis of the deposited data

Results flagged for a closer look

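For 2 members the change with TCDD differed between cultures with and without EGF by a test of that difference (limma, interaction of EGF with TCDD averaged over arrays with and without IDMB). Cox4i1 differed by 1.04 on the log2 scale (SE 0.24, adjusted p = 0.0264), but by 0.12 (adjusted p = 0.901) in its second probe set (93788_at). The brighter one's adjusted p ran from 0.0186 to 0.612 over the alternatives. Uqcrc2 differed by 0.91 (SE 0.22, adjusted p = 0.0310), and its adjusted p ran from 0.0208 to 0.674. The brighter Cox4i1 probe set and that of Uqcrc2 carry the suffix that marks probes able to match several related sequences.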

How the results depend on the processing

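Of 72 calls of a named member in a comparison, 72 kept their call with a pseudocount of 50, 67 after quantile normalization, 52 with arrays scaled to the same median, 54 with the mean over a gene's probe sets, 46 with no filter, 39 with no trend, 35 with the Gapdh ratio and 9 with the actin ratio as a covariate, where Cox7b reversed in the IDMB mean effect (-0.10). Without TCDD 2, 26 kept it. With the actin ratio, the members called were 1 for the IDMB mean effect, 0 for EGF, 1 for TCDD, and 0 for the EGF by TCDD interaction, IDMB against UT, EGF against UT, IDMB+TCDD against TCDD and EGF+TCDD against TCDD. With the Gapdh ratio they were 0 for the EGF mean effect, the EGF by TCDD interaction, EGF against UT, TCDD against UT and EGF+TCDD against TCDD. With arrays scaled to the same median they were 3 for the EGF mean effect, 1 for TCDD, 1 for IDMB against UT, 0 for EGF against UT and 3 for EGF+TCDD against TCDD. With no trend they were 3 for the EGF mean effect, 1 for TCDD, 1 for the interaction, 1 for IDMB against UT, 0 for EGF against UT, 5 for TCDD against UT, 10 for IDMB+TCDD against TCDD and 3 for EGF+TCDD against TCDD. With no filter they were 0 for the TCDD mean effect, 0 for the interaction and 5 for EGF+TCDD against TCDD, and with the mean over probe sets 1 for the interaction, 1 for IDMB against UT and 6 for EGF+TCDD against TCDD. With only the 2 groups compared they were 0 for IDMB against UT, 0 for EGF against UT and 1 for TCDD against UT. Over 3 backgrounds, without the TCDD pair, the TCDD mean effect had 0, the member median, TCDD mean effect, was 0.0516, and the member median, IDMB mean effect, was 0.0233. With 1 array left out, the counts were 13 to 23 for the IDMB mean effect, 1 to 7 for EGF, 0 to 3 for TCDD, 0 to 0 for both interactions of IDMB, 0 to 3 for that of EGF with TCDD, 0 to 2 for IDMB against UT, 0 to 3 for EGF against UT, 1 to 13 for TCDD against UT, 3 to 18 for IDMB+TCDD against TCDD and 0 to 11 for EGF+TCDD against TCDD. The medians were 0.11 to 0.16, -0.06 to 0.01 and -0.07 to -0.0057 for IDMB, EGF and TCDD. Whether array numbers pair the groups was not settled. Only the deviations of arrays numbered 1 were compared (28 correlations, median 0.05, -0.10 to 0.44, 8 over 0.1). With a replicate block 15 members were called in TCDD against UT, 21 in the IDMB mean effect and 5 in that of EGF. The member counts in this section stand without the share of all probe sets under the same setting. A larger or smaller count is therefore not a result about the members. The fits over 3 backgrounds, and all alternatives for comparisons within IDMB, TCDD or EGF+TCDD cultures, were chosen after seeing the data. The cause of these changes was not tested. The self-test drew its noise at the spread of all tested probe sets. It recovered 2% of changes of 0.5 on the log2 scale in TCDD against UT. The members' median spread was smaller (0.20 against 0.29), so the share for them can differ.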
